A study of Mus musculus with 8 samples.

Results

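Fibrinogen and clotting factor genes were followed in primitive erythroid precursors and epithelial cells taken by laser from the yolk sac of the mouse. The set held 10 genes, of 12393 that the array's annotation named singly: the 3 fibrinogen chains Fga, Fgb and Fgg, the serine protease precursors F2, F7, F10, Plg and Proc, the cofactor F5 and the kininogen Kng1. All probe sets annotated to these genes were taken, 14 of 22626, without regard to their values. The genes themselves were chosen with earlier results of these data known. Of the 10 genes, 7 were lower in the erythroid captures, 2 (F2 and F7) were lower on average without passing the test, and F5 was too dim to be tested.

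Blood clots when a cascade of plasma proteases ends in thrombin, which F2 encodes as its precursor, and thrombin turns soluble fibrinogen into fibrin. Fibrinogen is assembled from pairs of alpha, beta and gamma chains, each from its own gene. Later in life the hepatocytes of the liver make most of these proteins. Before the liver is formed, the visceral endoderm, the absorptive and secretory epithelium on the outside of the yolk sac, makes many proteins of the serum.

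The mice were of the strain FVB/N, the labels name no other genotype or treatment in either group, and the yolk sacs were taken at embryonic day 9.5. There were 4 erythroid and 4 epithelial captures, in 4 pairs whose members came from the same slides, each pair from 2 to 4 pooled yolk sacs of 2 litters. One erythroid cell took 2 to 3 laser pulses and one epithelial cell took 1. From each capture, 10 to 39 ng of RNA went through a labelling protocol with a pair of amplification cycles and onto an Affymetrix mouse expression array of its own.

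With 4 arrays per group, the precision of every value is limited by that number. The array medians of the deposited signal lay between 81.5 and 127. A background level, the 95th percentile of 117 probe sets for sensory receptors, hair proteins and defensins, lay between 55.1 and 133. Of the markers of the named cell types, 9 of 9 erythroid genes were higher in the erythroid captures, and 9 of 11 visceral endoderm genes were lower there. The markers thus went with the labels, but their lists were chosen with earlier results of these data known. Neither kind of capture lacked the other's transcripts. Summed signals of the endoderm markers were 59000.5 to 95269 in erythroid captures, against 95174 to 161721 in epithelial ones, and those of the erythroid markers 29726 to 58294 and 6148 to 13459. Ttr and Afp, which were not called (-0.20 and -0.16), made up much of both endoderm sums, and the other 9 markers summed to 18832 to 28488 and 42364 to 93576. Each of these erythroid and endoderm markers lay above background on at least 1 array of each group. In captures of this kind, fewer cells of a type and less RNA per cell cannot be told apart. The signal at the 3' end of the Gapdh control transcript exceeded that at its 5' end by a ratio of 38.7 to 44.4 in pairs 1 and 2, against 7.0 to 17.4 in pairs 3 and 4, so values within each set of pairs are given below.

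The fibrinogen genes stand side by side in the genome. In the RefSeq annotation of build GRCm38.p6 no gene lies between Fgg and Fga, and 1 predicted gene, Gm40075, lies between Fga and Fgb. F7 and F10 likewise neighbour each other on another chromosome. Upstream sequences from RefSeq start sites were searched for 7 of the 10 genes, and those of Plg, Proc and Kng1 were not searched. The 250 bases before the start of the fibrinogen genes are shown because these genes were lower together, at chr3:83025903-83026152 (plus strand), chr3:83049864-83050113 (minus strand) and chr3:83007474-83007723 (plus strand), 5′ to 3′. Capitals mark matches to any of the motifs searched.
Fga: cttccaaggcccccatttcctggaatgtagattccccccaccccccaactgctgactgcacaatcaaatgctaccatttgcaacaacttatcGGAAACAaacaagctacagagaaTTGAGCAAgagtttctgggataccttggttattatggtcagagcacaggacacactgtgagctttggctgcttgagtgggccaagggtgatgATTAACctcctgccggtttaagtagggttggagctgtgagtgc
Fgb: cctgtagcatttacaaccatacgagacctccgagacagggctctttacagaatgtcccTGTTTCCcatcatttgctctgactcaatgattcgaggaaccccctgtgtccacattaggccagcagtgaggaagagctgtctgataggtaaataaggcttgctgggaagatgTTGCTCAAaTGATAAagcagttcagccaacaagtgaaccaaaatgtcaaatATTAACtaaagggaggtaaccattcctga
Fgg: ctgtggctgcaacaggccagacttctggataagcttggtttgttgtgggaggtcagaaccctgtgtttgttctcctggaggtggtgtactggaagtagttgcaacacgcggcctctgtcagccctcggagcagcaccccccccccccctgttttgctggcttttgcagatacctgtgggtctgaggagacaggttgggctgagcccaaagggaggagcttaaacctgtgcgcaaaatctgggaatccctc

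The motifs were short forms of those bound by regulators of liver and endoderm genes, searched on both strands: GTTAAT (a half-site of the HNF1 factors), TTGCNNAA (C/EBP factors), TGTTTNC (FOXA factors), CAAAGTCC (HNF4 factors), with TATAAA for the TATA box, AGATAA for GATA factors, or TGATAA for the same factors. Fga and Fgb each held 1 match to the HNF1, C/EBP and FOXA forms. The HNF1 form lay 43 to 38 bases before the start in Fga and 29 to 24 before it in Fgb, in the same orientation. Fgb also held TGATAA, 71 to 66 bases before its start, next to its C/EBP match without overlap. Fgg held no match, and neither did F2, F5, F7 or F10. Over all 32851 upstream sequences of this length, 6.43% held the HNF1 form, 9.56% the C/EBP form, 17.8% the FOXA form, 1.20% the HNF4 form, 12.4% TATAAA, 9.99% AGATAA and 7.94% TGATAA. A match is a stretch of letters and was not shown to be bound.

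The comparison asked how far these genes differ between red cell precursors and the epithelium of the same yolk sacs. Each gene was read from its brightest tested probe set. In a limma fit of 11449 probe sets, with p-values adjusted over all of them by Benjamini-Hochberg, 7 of the 9 tested genes were lower in the erythroid captures at an adjusted p under 0.05. Of all 7191 genes tested, 8.87% were lower and 6.02% higher, and with the arrays centred on their medians 10.96% were lower and 4.14% higher. None of the 9 clotting genes was higher, also at an unadjusted p under 0.05 (0 of 9). Over the 9 genes the log2 difference (erythroid minus epithelial) had a median of -1.53, beside -0.0052 for all genes tested. Median centring moved the median of all genes to -0.14, and the differences of all 9 clotting genes stayed below 0 under each scaling, with 6 called with the deposited scaling and 8 with median centring. In 6 of the 9, the highest erythroid signal was below the lowest epithelial one, which held for 7.48% of all genes. By probe set, 10 of the 12 tested were lower, among them 1 of F10 that reached the array median on epithelial arrays only.

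**Figure D1:**
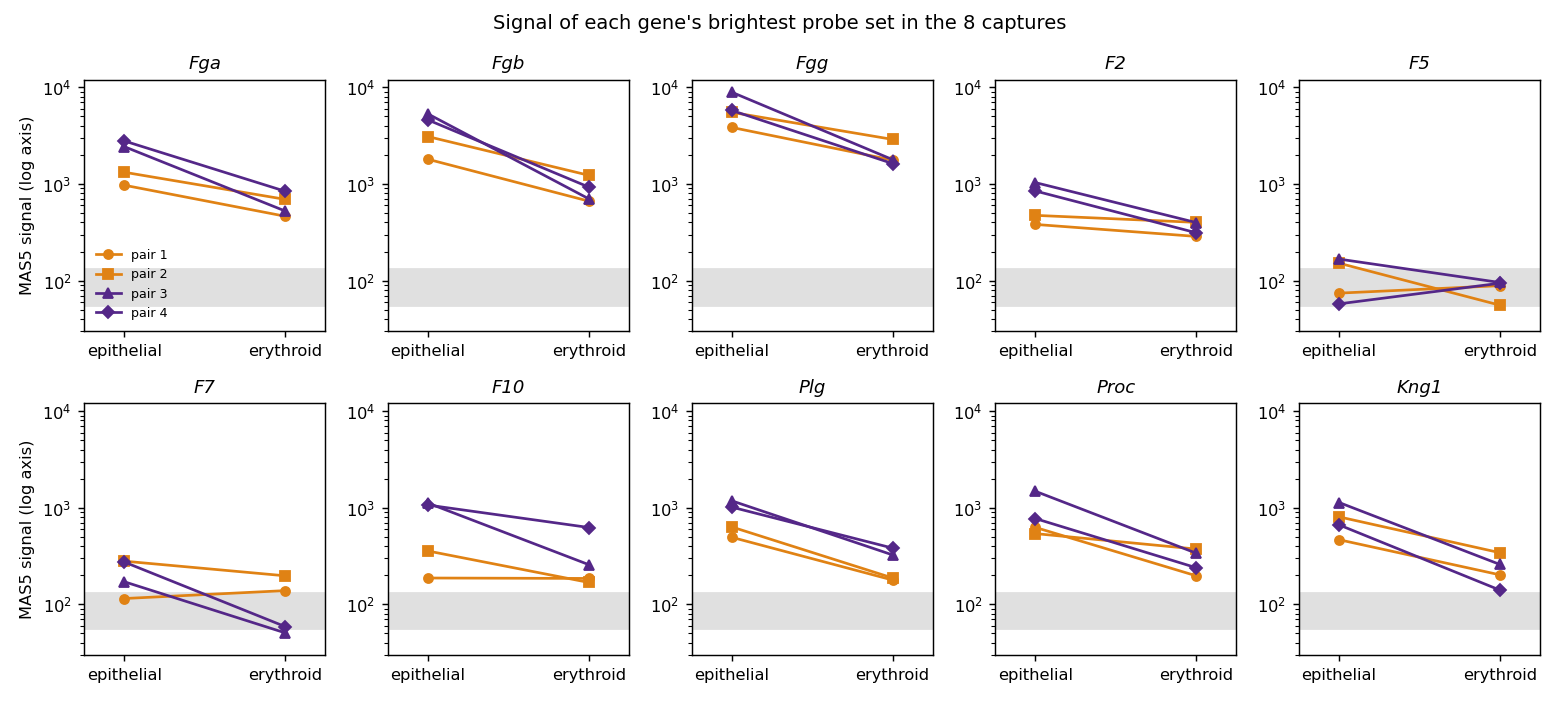
Deposited MAS5 signal (log axis) of the brightest probe set of each of the 10 genes, with a line joining the epithelial and the erythroid capture of each pair (orange, pairs 1 and 2; purple, pairs 3 and 4). The grey band spans the background levels of the 8 arrays (55.1 to 133). The lines of the 3 fibrinogen genes, Plg, Proc and Kng1 fall in all pairs, while those of F5 lie at or near the band.

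The fibrinogen chains gave the brightest signals of the set and were lower in 4 of 4 pairs. Fgb, the beta chain, had erythroid signals of 664, 1230.2, 702 and 929 in pairs 1 to 4, and epithelial signals of 1803, 3095, 5306 and 4601. The groups did not overlap, and the epithelial signals of pairs 3 and 4 were the highest. The difference was -2.01 ± 0.27 (SE, n = 4 pairs; adjusted p = 0.00181), a 4.03-fold higher epithelial level with a 95% interval of 2.67 to 6.08. Only 0.334% of the genes tested were lower by more.

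Fgg, the gamma chain, had erythroid signals of 1768, 2896, 1789 and 1629. Its epithelial signals were 3853, 5520.2, 8917 and 5775, again with no overlap. The difference was -1.54 ± 0.22 (adjusted p = 0.0026), or 2.90-fold (2.06 to 4.09). Fga, the alpha chain, had erythroid signals of 464, 694, 525 and 842 and epithelial signals of 972, 1324, 2434 and 2788. Its lowest epithelial capture, in pair 1, was close to its highest erythroid one, in pair 4. The difference of Fga was -1.48 ± 0.25 (adjusted p = 0.00421), or 2.79-fold (1.90 to 4.08). Every erythroid capture lay above background for all 3 chains.

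The genes of the vitamin K-dependent proteases, whose proteins must be carboxylated before they can bind membranes, were less even. Proc encodes protein C, which once activated inactivates clotting cofactors and so slows clotting. Its erythroid signals were 197, 373, 338 and 239 and its epithelial signals 625, 539.8, 1480 and 773. The groups did not overlap, and the smallest gap within a pair was in pair 2. The difference was -1.53 ± 0.29 (adjusted p = 0.00715; 2.88-fold, 1.85 to 4.49), with no call without pair 4 (adjusted p = 0.0509).

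F10, the protease that converts prothrombin to thrombin, had 3 probe sets, and all 3 were lower. The brightest gave erythroid signals of 186, 168, 257 and 624 and epithelial signals of 187, 357, 1116 and 1065. The groups overlapped, since the erythroid capture of pair 4 exceeded the epithelial ones of pairs 1 and 2. Its difference was -1.05 ± 0.30 (adjusted p = 0.0445; 2.07-fold, 1.30 to 3.30). The call ended without pair 2 (adjusted p = 0.0852), without pair 3 (-0.67, 0.167) and without pair 4 (0.138), and with the deposited scaling (0.0565) or no filter on dim probe sets (0.0742). A second probe set, of a kind that may also take up related transcripts, gave -1.96 ± 0.43 (adjusted p = 0.0136). Its erythroid signals in pairs 3 and 4 (103 and 7.75) lay below background, so this size is uncertain. The third probe set gave -2.00 ± 0.58 (adjusted p = 0.0455), but lay below background on all 4 erythroid arrays. The epithelial level was thus at least 1.78-fold higher by this probe set. This probe set reached the array median on the 4 epithelial arrays only, and so was tested through the group where it was high. Its call is therefore no separate support.

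F2, which encodes prothrombin, did not pass. Its erythroid signals were 287, 401, 399 and 313, and its epithelial signals 382, 474, 1035 and 847. The groups overlapped through the epithelial capture of pair 1. The difference was -0.88 ± 0.27 (adjusted p = 0.0515), at 1.85-fold with an interval of 1.22 to 2.78, and it passed with median centring (-1.04, adjusted p = 0.0292), with a larger offset (0.0483), with the stricter filter (0.0474), by gene means (0.0493) and without pair 2 (0.0281).

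F7, the protease that starts clotting together with tissue factor, also did not pass. Its erythroid signals were 139, 198, 50.7 and 58.9 and its epithelial signals 115, 279.9, 171 and 274. Only 2 of 4 erythroid captures lay above background, those of pairs 1 and 2, against 4 of 4 epithelial ones. The difference was -1.08 ± 0.43 (adjusted p = 0.119), at 2.11-fold with an interval of 1.10 to 4.06. Pair 1 alone went slightly the other way, at 0.0091.

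F5, the cofactor that speeds the cleavage of prothrombin by activated factor X, could not be tested on either of its 2 probe sets. The brighter one gave erythroid signals of 88.8, 55.8, 95.8 and 94.1 and epithelial signals of 74.3, 152, 167 and 57.6. It lay above background on 1 of 4 erythroid and 3 of 4 epithelial arrays, and the groups overlapped. In a fit without the filter its difference was -0.52 ± 0.47 (adjusted p = 0.632), and that of the second probe set was -0.96 ± 0.56 (adjusted p = 0.41).

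Plg and Kng1, which act around the clot more than in the making of thrombin, were both lower in the erythroid captures. Plg encodes plasminogen, the precursor of the protease that dissolves fibrin. Its erythroid signals were 179, 188, 325 and 382 and its epithelial signals 494, 633, 1179.5 and 1015. Both groups were brighter in pairs 3 and 4, and they did not overlap. The difference was -1.66 ± 0.21 (adjusted p = 0.00148; 3.16-fold, 2.28 to 4.38), the smallest adjusted p of the set.

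Kng1 encodes kininogen, the source of bradykinin and a cofactor of the contact system. The mouse has a closely related gene, Kng2, and whether the probe sets take up its transcript was not tested. Erythroid signals were 202, 342, 259 and 140.4, and epithelial signals 467, 804, 1133 and 664. The groups did not overlap. The difference was -1.71 ± 0.26 (adjusted p = 0.00296; 3.26-fold, 2.20 to 4.84), and the dimmer probe set gave -1.53 ± 0.26 (adjusted p = 0.00414).

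**Figure D2:**
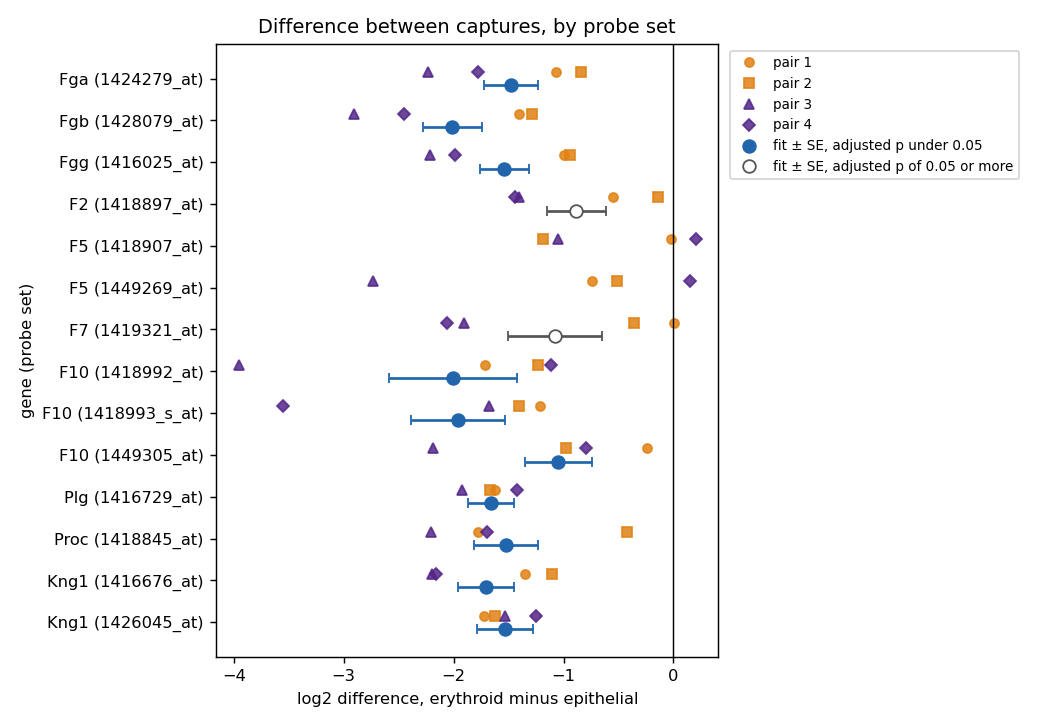
Log2 difference between the captures (erythroid minus epithelial) for each of the 14 probe sets, in each pair (small marks; orange, pairs 1 and 2; purple, pairs 3 and 4) and as the fitted value ± SE (large circles; filled where the adjusted p was under 0.05). The 2 probe sets of F5 were not tested and have no fitted value. All 12 fitted values lie below 0, from -0.88 for F2 to -2.01 for Fgb.

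The difference between the sets of pairs passed its test for 2 of the 9 genes. The mean difference of Fgb was -1.34 in pairs 1 and 2, against -2.68 in pairs 3 and 4, and that of Fgg was -0.97 against -2.10. These were the genes that passed, at -1.34 ± 0.32 (adjusted p = 0.0415) and -1.13 ± 0.27 (0.0374), as it did for 2.00% of all genes. Both calls ended with the deposited scaling, without a variance trend and without pair 1, 2 or 3, where 1 set holds a single pair that is assumed to vary like the others, and that of Fgg also with median centring (adjusted p = 0.0536). With 1 pair left out, the estimates ran from -1.56 to -1.11 for Fgb and from -1.25 to -1.02 for Fgg. The third chain, Fga, was at -0.95 and -2.00 without passing (adjusted p = 0.18).

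None of the other 6 genes passed this test. F2 was at -0.34 and -1.43 (adjusted p = 0.255) and F7 at -0.17 and -1.98 (0.26). Both erythroid signals of F7 in pairs 3 and 4 lay below background, so there the epithelial level was at least 2.34-fold higher and -1.98 is not an exact size. F10 was at -0.61 and -1.49, Proc at -1.10 and -1.95, and Kng1 at -1.23 and -2.18 (adjusted p = 0.358 to 0.4995). Plg was at -1.65 and -1.67 (adjusted p = 0.99), and the dimmer probe set of Kng1 was at -1.67 and -1.39. The visceral endoderm markers had medians of -1.07 and -1.88 in these sets of pairs, and all genes tested -0.029 and 0.0072. Markers that were higher in the erythroid captures also had larger differences in pairs 3 and 4. Medians were 1.33 and 3.25 for the erythroid markers and 0.34 and 2.53 for those of mesenchyme and mesothelium. Those of megakaryocytes and platelets were 0.81 and 1.85. The Gapdh ratio parts the same sets, and its part in these values was not tested.

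**Figure D3:**
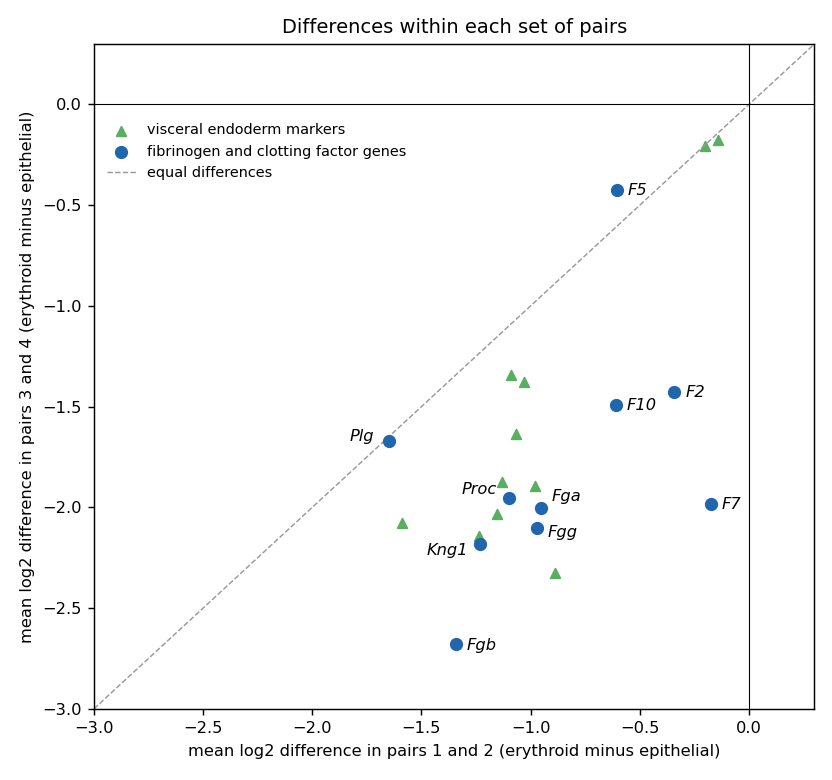
Mean log2 difference (erythroid minus epithelial) in pairs 1 and 2 (horizontal axis) against that in pairs 3 and 4 (vertical axis) for the 10 genes (blue circles) and 11 visceral endoderm markers (green triangles). The dashed line marks equal differences. Plg lies on it, at -1.65 and -1.67, F5 lies slightly above it, and the other 8 genes lie below it.

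Of 7 tested megakaryocyte and platelet markers 3 were higher in the erythroid captures and 0 lower. Of 7 mesenchyme and mesothelium markers 5 were higher and 0 lower, beside 6.02% higher and 8.87% lower of all genes tested. The median difference of the mesenchyme and mesothelium markers was 0.34 in pairs 1 and 2, against 2.53 in pairs 3 and 4. The platelet markers summed to 5397 to 18866 in erythroid captures, against 1835 to 3074 in epithelial ones. Pf4, a platelet chemokine, made up most of the erythroid sums, and the other 8 markers summed to 1239 to 3860.1 and 630.1 to 1028. Itga2b (-0.04) and Gp5 (-0.48) were among those not called. Those of mesenchyme and mesothelium summed to 25740.1 to 45547 and 5951 to 23452. Of the endothelial markers 1 of 4 tested was higher and 0 were lower, and of the leukocyte markers 0 of 3 passed either way. The part of these cells in the values of the clotting genes was not tested.

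The rest of the clotting and fibrinolysis system did not move as one. Of 38 further genes listed, 33 were measured by a probe set of their own and 17 were bright enough to be tested. Of these 17, 6 were lower in the erythroid captures and 2 higher, and the median log2 difference was -0.70. Among all genes tested, 8.87% were lower and 6.02% higher. Among the 16 that were too dim, 12 lay above background on at most 1 of the 8 arrays, among them the factors F8, F9, F11 and F12. These factors of the intrinsic branch of the cascade were thus hardly measured. Vwf, the carrier of factor VIII that is made by endothelium and megakaryocytes, was also too dim to be tested. The erythroid signals of Vwf were 168, 193, 98.3 and 139, above background on 3 of 4 arrays, and its epithelial signals 48.8, 11.5, 3.77 and 49.1, below background on all 4. The groups did not overlap. In the fit without the filter the difference of Vwf was 2.21 ± 0.59 (adjusted p = 0.0497), which is not an exact size because the epithelial level was not measured.

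Of the 6 genes that were lower, 4 encode serpins, a family of protease inhibitors. Serpinf2, the main inhibitor of plasmin, was lower by the largest amount of this list, at -2.23 ± 0.38 (adjusted p = 0.00427). Its mean signal was 544 in the erythroid captures, against 3093 in the epithelial ones. Its difference was -1.32 in pairs 1 and 2, against -3.14 in pairs 3 and 4 (test of this gap, adjusted p = 0.0415). Serpina10, which inhibits activated factor X with the help of protein Z, was at -1.54 ± 0.27 (adjusted p = 0.00473). Proz, protein Z itself, was at -1.68 ± 0.50 (adjusted p = 0.0491). Only 2 of 4 erythroid captures lay above background for Proz, so its size is uncertain. Serpind1, heparin cofactor II, was at -1.29 ± 0.28 (adjusted p = 0.0127) and Serpinc1, antithrombin, at -1.005 ± 0.29 (0.0439). Vkorc1, which recycles the vitamin K that carboxylation uses, was at -0.71 ± 0.17 (adjusted p = 0.0186). Without pair 3 the calls of Proz, Serpinc1, Serpind1 and Vkorc1 ended (adjusted p = 0.0534 to 0.175), as they did without pair 4 (0.0783 to 0.1997), and those of Proz and Serpinc1 also without pair 2 (0.073 and 0.0685). The same 2 calls ended with the deposited scaling (adjusted p = 0.0585 and 0.0577) and with no filter (0.0846 and 0.0802). Proz was at -1.003 without pair 3, and its call also ended with an offset of 1 (adjusted p = 0.0582) and by gene means (0.0532).

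The 2 tested genes that passed as higher encode receptors of the cell surface. Pros1, grouped here with the inhibitors and their cofactors, did not pass but was higher in 4 of 4 pairs. Its difference was 0.96 ± 0.29 (adjusted p = 0.0525). Procr was at 2.09 ± 0.33 (adjusted p = 0.00333). It encodes the receptor that presents protein C for activation, known from endothelium and blood stem cells. Its only probe set, like those of F2r and Serpina10, is of the kind that may also take up related transcripts. The erythroid signals of Procr were 4164, 14197, 343 and 863 in pairs 1 to 4 and its epithelial signals 471, 1686, 173 and 200.3. The groups overlapped, and pair 2 was the brightest in both. Pairs 1 and 2 gave a mean difference of 2.88, against 1.30 for the others (test of this gap, adjusted p = 0.0587). Procr was higher in 4 of 4 pairs, while Proc, which encodes its ligand, was lower in 4 of 4. F2r, a thrombin receptor, was at 0.88 ± 0.20 (adjusted p = 0.0167). It was at 0.38 in pairs 1 and 2, against 1.38 in pairs 3 and 4 (test of this gap, adjusted p = 0.0434). Its call ended with median centring (0.65, adjusted p = 0.0962), without pair 3 (0.0797) and without pair 4 (0.0927), while its second tested probe set gave 1.45 (0.00478). The smallest difference of the list was that of Tfpi, the inhibitor of the tissue factor pathway, at 0.041 ± 0.31 (adjusted p = 0.949) on its brightest probe set, with 0.72 in pairs 1 and 2 but -0.64 in pairs 3 and 4. Its sign turned with median centring (-0.11). The other 2 tested probe sets of Tfpi gave 0.21 (adjusted p = 0.812) and 1.15 (0.159), and the mean of the 3 gave 0.47 (0.483). Tfpi2 was not called (-1.32, adjusted p = 0.0707), but its gap between the sets of pairs passed (-0.20 against -2.44, adjusted p = 0.037). Serpinf2, F2r and Tfpi2 were the only tested genes of the list to pass this test of the gap, which 2.00% of all genes passed.

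**Figure D4:**
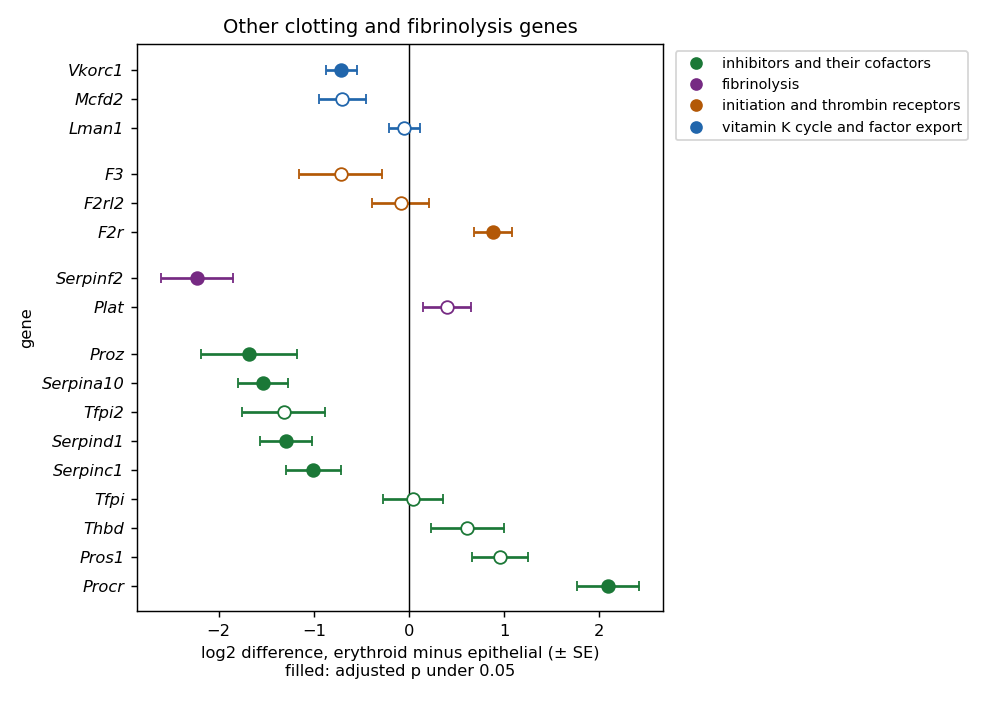
Log2 difference (erythroid minus epithelial) ± SE of the 17 other clotting and fibrinolysis genes that were tested, grouped by role and coloured by group, with filled circles where the adjusted p was under 0.05. Serpinf2 (-2.23) lies farthest left and Procr (2.09) farthest right, and Tfpi (0.041) lies near 0.

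The genes most like the fibrinogen chains were found from the 4 within-pair differences, by the root mean square distance from the mean of the 3 chains (-1.16, -1.02, -2.45 and -2.07 in pairs 1 to 4). The nearest 5 genes outside the set were Trap1a, a tumour antigen gene, at a distance of 0.133, Aktip (0.134), Mtarc1, a mitochondrial reductase (0.193), Lcp1, an actin-bundling protein (0.195), and Spint2, a membrane-bound inhibitor of serine proteases (0.2003). Within the set Kng1 was nearest to the chains, at 0.171 and rank 4 of 7191 genes. The chains themselves, which make up the mean, were at rank 3 (Fgg), 9 (Fga) and 48 (Fgb). Proc (0.486), Plg (0.579), F7 (0.725), F10 (0.796) and F2 (0.812) lay farther away.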

How the data were processed

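Per the submitters' processing notes, GCOS, MAS5 and affy were used, with versions not given in the sources used here. The authors deposited 1 intensity per probe set and array on a linear scale (MAS5 signal), with a mean of 500 on each array after trimming 2% at each end. Detection calls were not used here. Before log2 was taken, 8.14 was added to every intensity, which is the 10th percentile over the table. The log2 medians of the arrays spanned 0.59, above a limit of 0.5, so arrays were quantile normalised. Probe sets at or above the array median on at least 4 of 8 arrays were tested (11449, for 7191 genes) with limma 3.58.1 in R 4.3.3, using lmFit and eBayes (trended variance). The model had the pair and the cell type, 3 residual degrees of freedom, two-sided tests and Benjamini-Hochberg adjustment over all probe sets. A second fit added the interaction of cell type with the set of pairs (1 and 2, or 3 and 4). Intervals are at 95% for a single gene, without adjustment. Signals printed are the deposited ones, while differences come from the normalised log2 values.

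The annotation gave 20380 probe sets 1 gene, 691 several and 1555 none. Symbols were taken from RefSeq by gene identifier for 20351, whether or not they changed, and probe sets with several genes named none. The pairing comes from the labels, which state shared slides. In pairs 1 to 4, both captures' deviations from their group means had correlations of 0.44, 0.34, 0.31 and 0.54. Captures of different pairs correlated at 0.28 to 0.35 within a set of pairs and at -0.45 to -0.29 across the sets, so the deviations follow the sets as well as the pairs. Because the labels number pooled pairs, p-values refer to the spread between these pairs. Each probe set's variance was drawn towards a trend over all tested probe sets, so other genes also enter the p-values. The procedure was tested on simulated data. The members and lists were chosen with earlier results of these data known. Genes named were the 10 members, the other clotting genes that passed, the 3 with the largest and the 1 with the smallest difference, and the 5 nearest to the fibrinogen chains. F8, F9, F11, F12, Vwf, Pros1, Tfpi2, Ttr, Afp, Pf4, Itga2b and Gp5 were named after their values were seen. Alternatives were another scaling, offset or filter, no pair term, no variance trend, gene means, each set of pairs alone and each pair left out. A gene below background on every array of a group was given a bound: the mean of the other group over the mean background level, or its own level where higher.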

Additional observations from a re-analysis of the deposited data

Results flagged for a closer look

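Of 42 groups of 4 values of the clotting genes (levels in each kind of capture, and the within-pair differences), 1 held a value far from the other 3, and chance alone would be expected to mark about 1 in 20 such groups. This was the erythroid level of F10 on its dimmest probe set, with a gap to the next value of 0.852 of the whole range. Its erythroid signals were 64.1, 49.7, 11.7 and 53.1 in pairs 1 to 4, all below background, so the low value of pair 3 has no order against the others.

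The difference of 2 fibrinogen chains was larger in pairs 3 and 4 than in pairs 1 and 2 by the interaction test, by -1.34 on the log2 scale for Fgb and by -1.13 for Fgg.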

How the results depend on the processing

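Under 15 alternatives, all 135 values of the 9 tested genes stayed below 0, and the calls of Fga, Fgb, Fgg, Plg and Kng1 held in each. Between 5 and 9 of the genes were called lower, with 6 in the fit without the replicate block (no pair term) and 0 called higher. Of all 11449 probe sets, 1590 were called either way in the main fit, 445 without the replicate block and 2859 in pairs 3 and 4 alone. The count of 9 came from pairs 3 and 4 alone, so these counts are not on equal terms. Proc lost its call without a variance trend (adjusted p = 0.0518), and F10 in the fit without the replicate block (0.317), without a variance trend (0.114) and in pairs 1 and 2 (0.477). F7 passed in pairs 3 and 4 alone (adjusted p = 0.00659), where both erythroid signals were below background and the size is uncertain. The interaction of the sets of pairs, called for 2 genes, was called for 0 with the deposited scaling, 1 with median centring, 0 without a variance trend and 0 to 2 with 1 pair left out, a check chosen after seeing the data. That of Plg ran from -0.28 to 0.23 with 1 pair left out. Of the other clotting genes, 6 lower and 2 higher became 2 and 0 without the replicate block, and 1 and 1 without a variance trend. In pairs 1 and 2 alone 2 were lower, and with 1 pair left out 2 to 6 were lower and 1 to 3 higher. Procr lost its call without the replicate block (2.09, adjusted p = 0.299), and Serpinf2 without a variance trend (-2.23, 0.0523). Tfpi turned to -0.11 with median centring, to -0.64 in pairs 3 and 4, and ran from -0.46 to 0.40 with 1 pair left out. The causes were not tested. Signals near or below background limit F5, F7, Proz, Vwf and the dimmer probe sets of F10.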
